A study of Mus musculus with 6 samples.

Results

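T cell genes were followed in RNA from sorted hair follicle bulge stem cells (bulge SCs). The list held 10 mouse genes: the constant genes of the alpha-beta T cell receptor (Trac, Trbc2), those of the gamma-delta receptor (Trdc, Tcrg-C1), the chains of the CD3 complex (Cd3d, Cd3e, Cd3g, Cd247) and the kinases Lck and Zap70. They were found by matching the Ensembl identifiers of a table of 43274 genes to mouse symbols. A row was found for 9 of the 10, no row matched Trdc, which was not analysed here, and 6 of the 9 reached the minimum for testing, which was 10 normalized counts on average across libraries.

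Cells positive for CD34 and high in α6 integrin were sorted by FACS from epidermis taken at postnatal day 21, and RNA-seq was done on 3 libraries per genotype. Integrin-linked kinase (ILK) is an adaptor that couples integrins to the actin cytoskeleton. In controls (ILK +/- in the labels) 1 of the Ilk alleles was floxed, and in ILK-K5 mice (ILK -/- in the labels) both were. All animals carried K5-Cre. The keratin 5 promoter drives Cre in basal keratinocytes and other keratin 5-positive epithelia, and T cells are not its targets. The labels do not say how many mice stand behind a library, and p-values therefore measure the spread between these libraries.

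T cells recognize antigen with a receptor of 2 variable chains, either alpha with beta or gamma with delta. Each chain is spliced from a rearranged variable segment and a constant gene, and both receptor types signal through the same CD3 chains, whose phosphorylation by Lck recruits Zap70. In mouse skin, gamma-delta T cells are abundant: dendritic epidermal T cells (DETCs) lie between keratinocytes of the epidermis, hair follicle included, and carry a receptor whose gamma chain ends in the product of Tcrg-C1. CD3 chains, Trac, Trdc, Lck and Zap70 are T cell genes, although natural killer (NK) cells and innate lymphoid cells share some of them.

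Reads counted on genes ranged from 8228019 to 11969072 per library, and 1 read was worth 0.726 to 1.52 normalized counts. Most of the T cell genes had few reads, and their values carry a large counting error. Normalized counts of Ilk ranged from 10.6 to 38.5 in control and from 14.8 to 30.9 in ILK-K5 libraries (adjusted p = 0.933, limma). Ilk overlaps Taf10 and Rrp8 on the opposite strand, so that its count does not check the genotypes, and libraries are named here as labelled. Keratinocyte and bulge SC genes were high in every library, and Krt15, a bulge keratin, had a mean of 58056 normalized counts in control and 26550 in ILK-K5 libraries. Of 10 such genes tested none was higher and 1, Cd34, was lower in ILK-K5 libraries (log2 fold change -1.90, adjusted p = 0.0239, limma, kept in 2 of 6 fits with a library left out). Cd34 codes for the surface protein used in the sort.

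In GENCODE M21 (GRCm38) Cd3g (ENSMUSG00000002033, chr9:44969572-44980431), Cd3d (ENSMUSG00000032094, chr9:44981786-44987339) and Cd3e (ENSMUSG00000032093, chr9:44998740-45009627) lie side by side. Cd247 (ENSMUSG00000005763) spans chr1:165788681-165877277, and Zap70 (ENSMUSG00000026117) chr1:36761798-36782818 on the same chromosome. Lck (ENSMUSG00000000409) lies at chr4:129548344-129573641. Of the constant genes, Trbc2 (ENSMUSG00000076498) lies on chromosome 6, Tcrg-C1 (ENSMUSG00000076749) at chr13:19214103-19217024 and Trac (ENSMUSG00000076928) at chr14:54220521-54224206.

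The receptor constant genes come in near-identical copies, which limits what a read can be assigned to. Over the coding sequence of the beta constant genes Trbc1 and Trbc2, 488 of 512 aligned bases were identical (95.3%), and 183 of the 419 windows of 100 bases in Trbc2, the length of 1 read, also occur in Trbc1. Reads of Trbc1 and Trbc2 are therefore uncertain between the pair.

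The gamma constant genes are easier to tell apart. The first 240 coding bases are shown, because their differences let a read be assigned, of Tcrg-C1 (chr13:19214103-19214342, plus strand) and of its closest copy Tcrg-C2 (chr13:19307312-19307551, minus strand), both in exon 1 (GENCODE M21, GRCm38, 5′ to 3′ on the strand of the gene), with the positions that differ between them in capitals.
Tcrg-C1: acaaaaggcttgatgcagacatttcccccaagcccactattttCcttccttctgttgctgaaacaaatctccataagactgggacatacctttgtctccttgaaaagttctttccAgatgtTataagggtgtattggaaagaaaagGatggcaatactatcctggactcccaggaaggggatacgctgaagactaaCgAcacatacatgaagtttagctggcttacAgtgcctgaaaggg
Tcrg-C2: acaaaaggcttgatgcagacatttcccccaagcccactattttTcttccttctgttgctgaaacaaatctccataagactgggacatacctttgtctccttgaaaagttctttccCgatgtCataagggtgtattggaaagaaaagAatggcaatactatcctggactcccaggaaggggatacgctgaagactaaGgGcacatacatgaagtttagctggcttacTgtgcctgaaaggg
They differed at 7 positions. The coding sequences were 97.4% identical, and 0 windows of 100 bases were shared. Tcrg-C1 and Tcrg-C3 were 96.9% identical and shared 63 windows, 15.1% of those in Tcrg-C1, and Tcrg-C4 was the most distant copy at 77.3% identity with Tcrg-C1.

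The gamma constant gene Tcrg-C1 was the one T cell gene of the list called higher by limma. Control libraries 1 to 3 held 1, 5 and 21 of its reads, and ILK-K5 libraries 80, 96 and 101. On the normalized scale these were 0.965, 7.60 and 15.2 in control and 91.1, 74.0 and 98.4 in ILK-K5 libraries, with means of 7.94 ± 7.14 and 87.8 ± 12.5 (SD, n = 3 per genotype). The groups did not overlap, and the lowest ILK-K5 library lay far above control library 3, the highest control. The log2 fold change was 3.76 (SE 0.78, adjusted p = 0.0310 by limma with Benjamini-Hochberg adjustment over 16368 genes). The control mean was below the minimum for testing, so that Tcrg-C1 was tested only through the ILK-K5 libraries, which fixed its direction. The call was not stable: it was lost without control library 2 (adjusted p = 0.0999, limma) and without ILK-K5 library 1, 2 or 3 (0.113, 0.119 and 0.149, limma), whereas the log2 fold change stayed between 2.90 and 4.42. It was also lost with a pseudocount of 0.1 (adjusted p = 0.0626, limma) and narrowly in edgeR (adjusted p = 0.05004), and was kept in DESeq2 (adjusted p = 7.62e-05).

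Trbc2, a constant gene of the beta chain, was the most abundant gene of the list in reads in all libraries but control library 1. It had 46, 147 and 268 reads in control and 226, 619 and 409 reads in ILK-K5 libraries 1 to 3. The normalized counts were 44.4, 224 and 194 in control and 257, 477 and 398 in ILK-K5 libraries (154 ± 96.1 against 378 ± 112, SD, n = 3). Every ILK-K5 library lay above every control library, and control library 1 was lowest of all. The log2 fold change of 1.54 (SE 0.58, unadjusted p = 0.0257, adjusted p = 0.279, limma) did not pass the threshold. Without control library 1 it was 0.81.

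Few reads fell on Trac, the only constant gene of the alpha chain, with 0, 0 and 2 in control and 2, 4 and 1 in ILK-K5 libraries. All control libraries were at or below 3 reads, the number that a count of 0 allows, and the deposited FPKM imply that reads were counted over only 413 bases of the gene. No direction can be read from these counts (unfiltered log2 fit, adjusted p = 0.783, limma). Trbc1, the other beta constant gene, had 5, 56 and 18 reads in control and 41, 65 and 26 in ILK-K5 libraries. Its groups overlapped and its log2 fold change of 1.06 (SE 0.91) did not pass the test (adjusted p = 0.782, limma). The other gamma constant genes stayed at 0 to 11 reads per library: 7, 1 and 8 against 5, 9 and 10 for Tcrg-C2, 0, 0 and 8 against 11, 8 and 7 for Tcrg-C3, and 5, 0 and 3 against 1, 9 and 3 for Tcrg-C4. These 3 were below the minimum for testing. The normalized counts of Tcrg-C2 and Tcrg-C4 overlapped between genotypes, and those of Tcrg-C3 did not, with control library 3 just under the lowest ILK-K5 library.

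**Figure D1:**
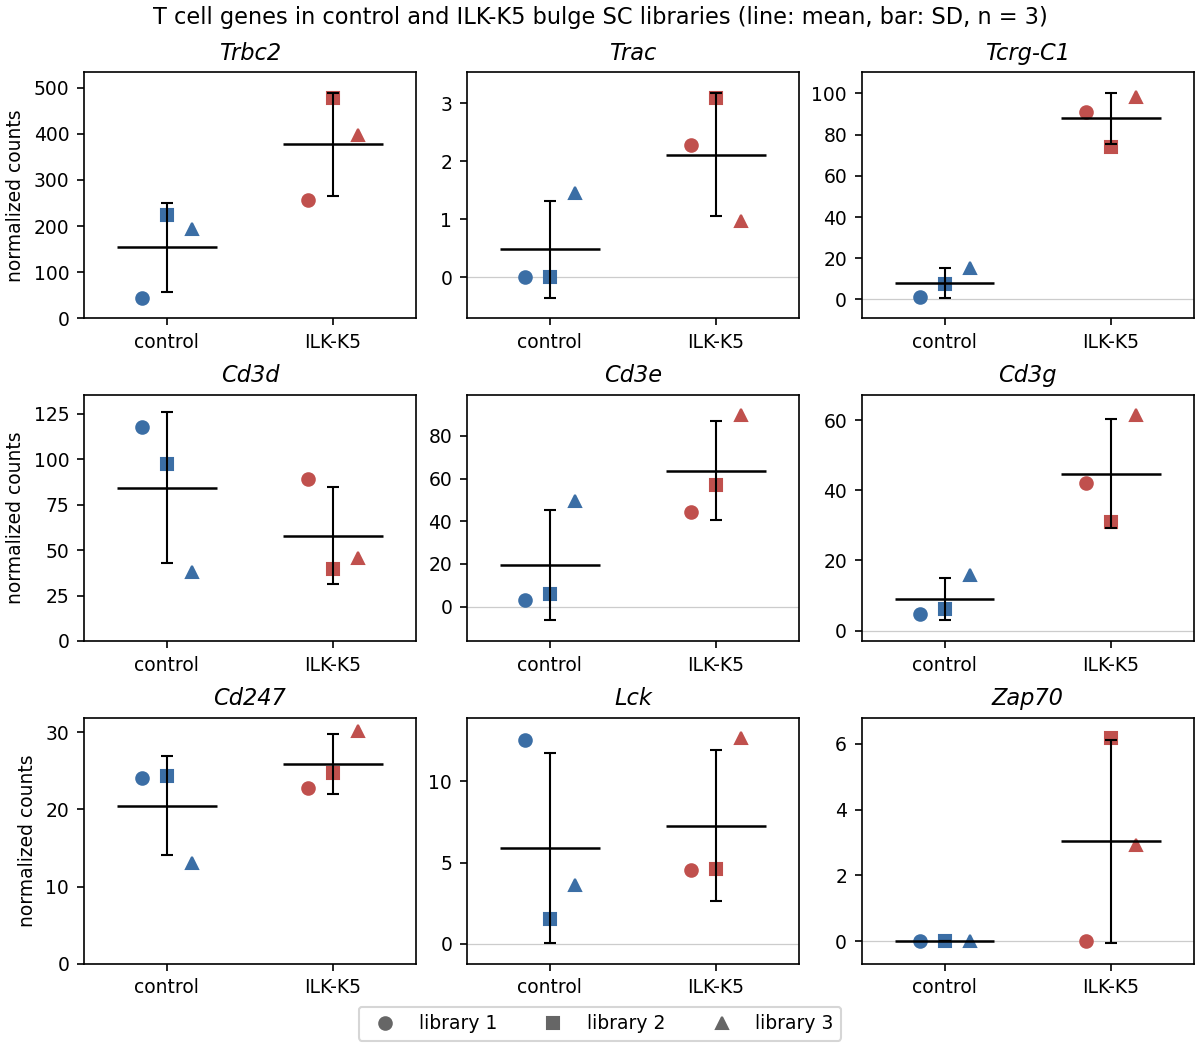
Normalized counts (vertical axis, linear, a scale per gene) of the 9 T cell genes with a row in the table, by genotype; points are libraries, lines means and bars SD (n = 3). The 3 genes whose ILK-K5 libraries all lie above the control libraries and which passed the filter are Trbc2, Tcrg-C1 and Cd3g, while Cd3d and Cd247 overlap.

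The CD3 chains, which carry the signalling motifs of the receptor, gave unlike values. Cd3g, the gamma chain of CD3, had 5, 4 and 22 reads in control and 37, 40 and 63 in ILK-K5 libraries, or 4.82, 6.08 and 16.0 against 42.1, 30.9 and 61.4 normalized counts. The groups did not overlap. Means were 8.96 ± 6.10 and 44.8 ± 15.4 (SD, n = 3), and the log2 fold change was 2.31 (SE 0.64, unadjusted p = 0.00530, adjusted p = 0.102, limma), short of the threshold. Cd3g too reached the minimum for testing only through the ILK-K5 libraries, which fixed its direction. DESeq2 called it (adjusted p = 0.0364), where 772 of 21104 genes with an adjusted p were called higher (3.66%). The labels add a number to each library name, the same for libraries 1, 2 and 3 of either genotype in turn, without saying what it stands for. The last 3 digits are alike in libraries 2 and 3 and other in library 1. A fit with a term for these digits, a reading the labels do not give, called Tcrg-C1, Cd3g and Trbc2 (adjusted p = 0.00567, 0.0423 and 0.0185, limma). That fit called 846 of all 16368 genes higher, where the main fit called 479.

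Cd3e, the epsilon chain, had 3, 4 and 68 reads in control and 39, 74 and 92 in ILK-K5 libraries. In normalized counts this was 2.89, 6.08 and 49.3 against 44.4, 57.1 and 89.6, with means of 19.4 ± 25.9 and 63.7 ± 23.3 (SD, n = 3). A single library set the overlap, since control library 3 lay above ILK-K5 library 1 while the other two controls had 3 and 4 reads. The log2 fold change was 2.48 (SE 0.90, unadjusted p = 0.0217, adjusted p = 0.255, limma). Without control library 3 it was 3.56 and passed the test (adjusted p = 0.0194, limma).

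Cd3d, the delta chain, was not higher in ILK-K5 libraries. It had 122, 64 and 52 reads in control and 78, 51 and 47 in ILK-K5 libraries, or 118, 97.3 and 37.7 against 88.8, 39.3 and 45.8 normalized counts. The groups overlapped, with means of 84.3 ± 41.6 and 58.0 ± 26.9 (SD, n = 3) and a log2 fold change of -0.47 (SE 0.54, 95% interval -1.69 to 0.75, adjusted p = 0.855, limma). In control libraries 1 and 2, Cd3d had 122 and 64 reads where Cd3e had 3 and 4 and Cd3g 5 and 4. Cd247, the zeta chain, had 25, 16 and 18 reads in control and 20, 32 and 31 in ILK-K5 libraries, 20.5 ± 6.45 against 25.9 ± 3.86 normalized counts (SD, n = 3). Its groups overlapped (log2 fold change 0.36, SE 0.53, 95% interval -0.84 to 1.57, adjusted p = 0.897, limma), and its reads are uncertain because 60.3% of its exonic sequence is shared with Pou2f1, on the opposite strand, or with Gm16565.

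The promoters of Cd3g and Cd3d are shown because these neighbours on chromosome 9 are read in opposite directions from starts 1355 bases apart and gave unlike values. Each stretch runs from 250 bases before to 50 bases after the start (RefSeq, GRCm38.p6, 5′ to 3′ on the strand of the gene; Cd3g at chr9:44980382-44980681, minus strand, and Cd3d at chr9:44981536-44981835, plus strand). Capitals mark GGAA, the core of the sites bound by Ets factors, on either strand (TTCC where it is on the other one).
Cd3g: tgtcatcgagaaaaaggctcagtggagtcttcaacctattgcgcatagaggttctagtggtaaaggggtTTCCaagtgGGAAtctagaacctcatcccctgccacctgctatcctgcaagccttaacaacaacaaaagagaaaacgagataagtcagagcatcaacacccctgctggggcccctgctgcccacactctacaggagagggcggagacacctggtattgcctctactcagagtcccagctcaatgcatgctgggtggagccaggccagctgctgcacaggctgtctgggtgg
Cd3d: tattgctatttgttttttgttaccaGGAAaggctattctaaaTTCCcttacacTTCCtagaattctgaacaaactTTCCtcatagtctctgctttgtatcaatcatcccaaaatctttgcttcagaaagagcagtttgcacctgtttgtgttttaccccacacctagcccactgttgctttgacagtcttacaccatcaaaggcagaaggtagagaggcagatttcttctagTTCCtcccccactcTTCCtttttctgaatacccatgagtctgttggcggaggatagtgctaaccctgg
Cd3g held 2 matches and Cd3d 6. Of 32851 mouse promoters of this length 96.0% hold at least 1 match, with a median of 3, 84.6% hold at least 2 and 15.7% at least 6. The letters TATAAA were found in neither, on either strand, and 13.6% of promoters hold them. These matches describe the letters and are not evidence of binding.

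The kinases that pass the signal on were barely detected. Lck, which phosphorylates the CD3 chains, had 13, 1 and 5 reads in control and 4, 6 and 13 in ILK-K5 libraries. Zap70, which binds the phosphorylated chains, had 0 reads in every control library, each of which allows up to 3, and 0, 8 and 3 in ILK-K5 libraries. Both were below the minimum for testing, their groups overlapped, and without the filter neither passed the test (adjusted p = 0.881 for Lck and 0.590 for Zap70, limma).

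Of the 6 genes of the list tested, 1 was called higher, 0 lower and 5 not called, beside 2.93% called higher among all 16368 genes. Groups were separated upwards for 3 of the 6, and 4 had an unadjusted p under 0.05; among all genes tested 10.9% were separated in this way and 2011 had such a p. The median log2 fold change of the 6 was 1.93, and that of all genes tested was 0.01. Being past the filter is in part set by the genotype in which a gene is high, so that these counts describe the 6 and not all 10. Tcrg-C1 and Cd3g, with control means of 7.94 and 8.96, passed it only through the ILK-K5 libraries, which fixed their direction. The call, the separated groups and the median rest in part on them. Summed over the 9 genes, the normalized counts were 207, 366 and 331 in control and 553, 717 and 740 in ILK-K5 libraries. Much of this sum was Trbc2, which was not called. It gave 224 of 366 and 194 of 331 in control libraries 2 and 3, and 257 of 553, 477 of 717 and 398 of 740 in ILK-K5 libraries. In control library 1, Cd3d gave 118 of 207. In RNA from sorted populations a change in the number of T cells and a change in RNA per T cell cannot be told apart.

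**Figure D2:**
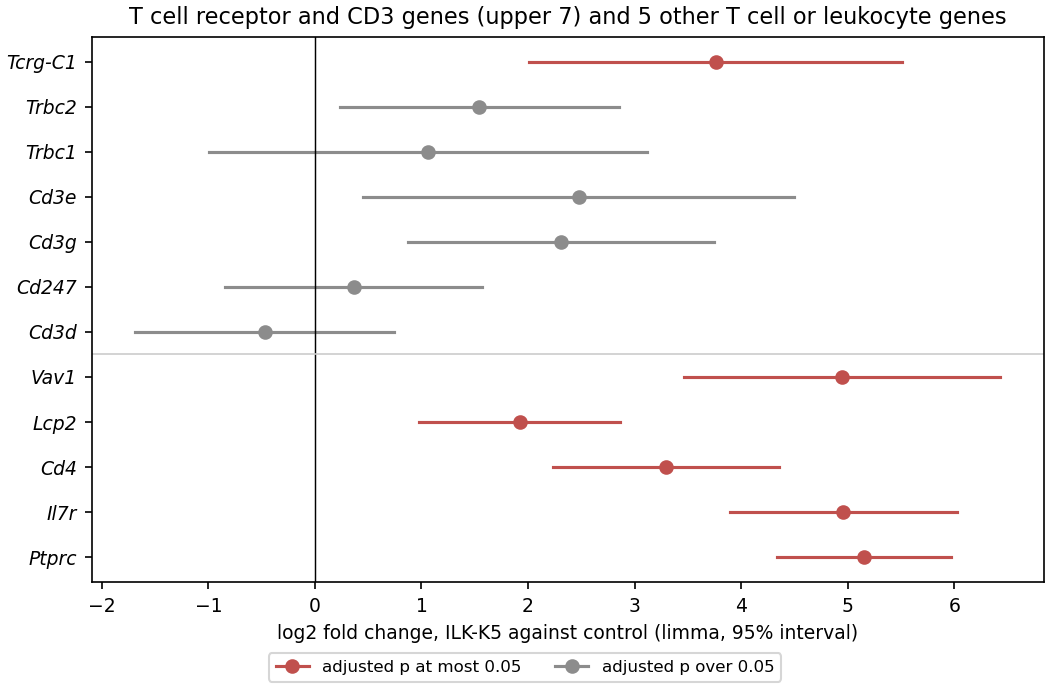
Log2 fold change of ILK-K5 against control (horizontal axis) with 95% interval from limma, 3 libraries per genotype; above the line the 7 T cell receptor and CD3 genes tested (Trbc1 included), below it 5 genes of the wider lists. Of the upper 7 only Tcrg-C1, at 3.76, has an adjusted p of at most 0.05, and the intervals of Trbc1, Cd247 and Cd3d include 0.

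Levels were compared between genes per length, as normalized counts per kb of exon in GENCODE M21. Among the 9 genes of the list and Trbc1, the order in ILK-K5 libraries was Trbc2 (546 ± 161 per kb, SD, n = 3), Tcrg-C1 (95.1 ± 13.5), Trbc1 (54.4 ± 17.9), Cd3d (31.9 ± 14.8), Cd3e (15.6 ± 5.72), Cd3g (13.7 ± 4.72) and Cd247 (4.86 ± 0.72). Lck (2.49 ± 1.59), Trac (2.26 ± 1.14) and Zap70 (1.01 ± 1.03) were at the bottom. The place of Trac depends on the length used. With the 413 bases implied by the deposited FPKM, in place of 935, Trac was at 5.11 ± 2.58 per kb, beside Cd247. The other gamma constant genes stood at 13.1 ± 5.38 (Tcrg-C3), 8.16 ± 2.27 (Tcrg-C2) and 3.72 ± 3.02 per kb (Tcrg-C4). Trbc2 lay above Tcrg-C1 in each library, while the neighbours Cd3d, Cd3e and Cd3g and the neighbours Lck, Trac and Zap70 overlapped in their spread. In control libraries Trbc2 again led (223 ± 139 per kb), followed by Cd3d (46.4 ± 22.9) and Trbc1 (45.9 ± 59.0), with Tcrg-C1 at 8.59 ± 7.73.

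**Figure D3:**
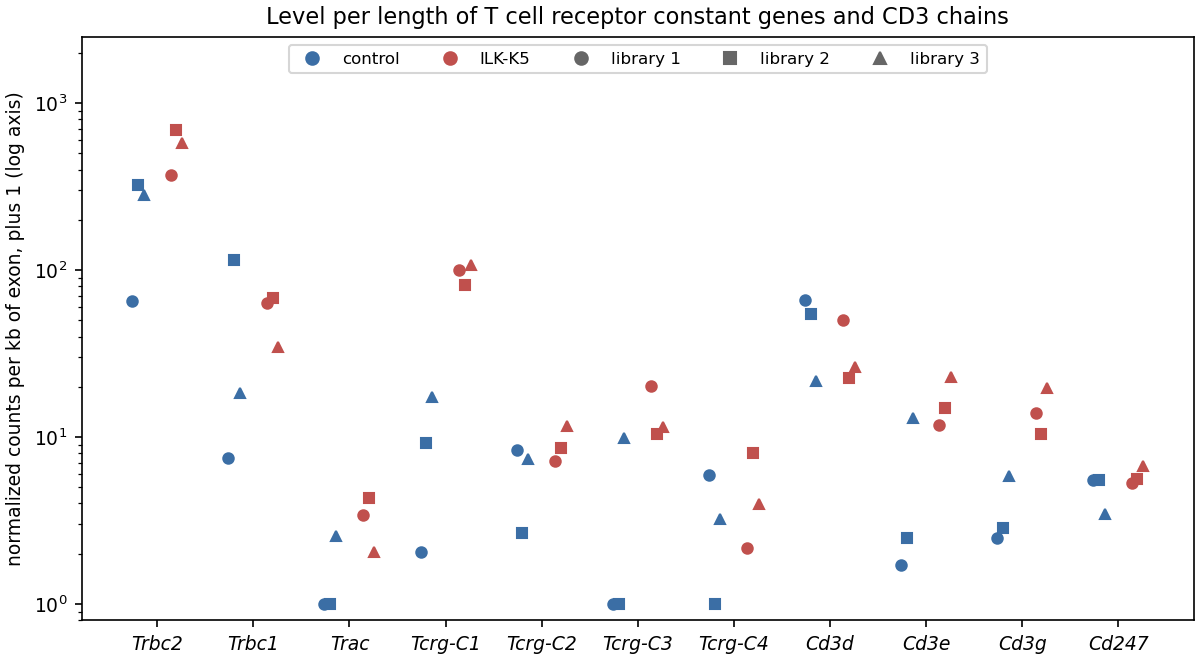
Level per length (normalized counts per kb of exon in GENCODE M21, plus 1, log axis) of T cell receptor constant genes and CD3 chains; each point is a library, blue control and red ILK-K5. Trbc2 is the highest of the constant genes in every library, with Cd3d just above it in control library 1, and Trac is near the bottom in all.

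The beta constant level stood against the gamma constant level very differently in single libraries. The ratio of Trbc2 to Tcrg-C1 per kb was 61.4, 39.3 and 17.0 in control and 3.77, 8.61 and 5.41 in ILK-K5 libraries, so that the groups did not overlap. The ratio of the means was 25.9 in control and 5.74 in ILK-K5 libraries. Control library 1, with 1 read of Tcrg-C1, gave the highest ratio and rests on that read. With the lengths implied by the deposited FPKM, 518 bases in place of 924 for Tcrg-C1, the ratios of the means were 14.5 and 3.22. On those lengths Cd3d, Cd3e and Cd3g stood at 43.8 ± 20.3, 44.4 ± 16.2 and 41.9 ± 14.4 per kb in ILK-K5 and at 63.7 ± 31.4, 13.5 ± 18.1 and 8.37 ± 5.70 in control libraries (SD, n = 3). The means of the 3 chains in ILK-K5 libraries lay within 1 SD of each other, and in control libraries Cd3d stood above the other two except in library 3, where Cd3e was above it.

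Variable segments tell which receptor a T cell has rearranged, and were sparsely read. Of 223 variable and joining segments 81 had any read, 264 reads in all, with 107, 17 and 38 in control and 12, 32 and 58 in ILK-K5 libraries. Control library 1 had the most, 59 on Trav and 10 on Traj segments among them, but 0 reads on Trac and 1 on Tcrg-C1. Whether reads on segments came from rearranged receptor transcripts was not tested. The segment with the most reads was Trdv4, which forms the delta chain of DETCs, with 0, 0 and 9 reads in control and 2, 7 and 23 in ILK-K5 libraries. Trbv31 followed with 6, 0 and 0 against 6, 1 and 2 reads, then Tcrg-V4 with 9, 0 and 1 against 0, 0 and 3 and, equal to it in total, Trav8-2 with 12, 1 and 0 against 0, 0 and 0. Tcrg-V5, the gamma segment of DETCs, had 0, 0 and 1 reads in control and 1, 4 and 5 in ILK-K5 libraries. Control library 3 was the one control library with reads on Trdv4 and on Tcrg-V5, and it was also the highest control library for Tcrg-C1, Cd3g and Cd3e. In normalized counts it was, however, the lowest control library for Cd3d (37.7) and Cd247 (13.1). It also had the most reads on genes of all libraries (11969072), which favours a read on a rare segment. Tcrg-V6, the segment of a dermal gamma-delta subset, was at 0 in all 6.

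Other genes of T cells were taken from lists by role. Among coreceptors Cd4, which binds class II molecules and is also made by some myeloid cells, was higher in ILK-K5 libraries (10.8 ± 4.02 against 112 ± 13.7 normalized counts, SD, n = 3, log2 fold change 3.30, adjusted p = 0.00451, limma). The subunits of CD8 were below the minimum for testing, with 20, 0 and 1 reads of Cd8a in control and 0, 4 and 3 in ILK-K5 libraries, and 9, 0 and 4 against 6, 3 and 2 reads of Cd8b1. Of 20 genes of proximal receptor signalling, 10 were tested, 2 were higher and none lower, and the median log2 fold change was 0.45. The 2 were Vav1, a guanine nucleotide exchange factor of blood cells in general (4.95, adjusted p = 0.00316, limma), and Lcp2, the adaptor SLP-76, made in myeloid cells too (1.92, adjusted p = 0.0398, limma). The call of Lcp2 was kept in only 1 of 6 fits with a library left out (adjusted p up to 0.231, limma) and lost with a pseudocount of 0.1, on FPKM and in edgeR, and that of Vav1 was kept in 6 of 6. Vav1 reached the minimum for testing only through the ILK-K5 libraries, which fixed its direction. The most abundant of the list, Rasgrp1, which activates Ras and is also made in keratinocytes, was level (399 ± 75.6 against 396 ± 147). Lat, the membrane adaptor that Zap70 phosphorylates, was below the minimum for testing.

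Of 14 surface receptors of T cells 5 were tested and 2 were higher, and the median log2 fold change was 3.38. Cd2 and Il2rb reached the minimum for testing only through the ILK-K5 libraries, which fixed their direction, so that the count and median say nothing of the 14. Il7r, the receptor for a survival cytokine of lymphocytes and also made by some myeloid cells, had the highest level (11.1 ± 2.88 against 402 ± 219 normalized counts, SD, n = 3, log2 fold change 4.96, adjusted p = 6.07e-04, limma). Cd2, an adhesion receptor of T and NK cells, had 0, 0 and 3 reads in control and 42, 63 and 38 in ILK-K5 libraries. It was called higher (log2 fold change 4.94, 95% interval 3.13 to 6.75, adjusted p = 0.00968, limma). The call of Cd2 was lost on leaving out any 1 of the ILK-K5 libraries (adjusted p up to 0.105, limma) and with a pseudocount of 0.1. Il2rg, the common chain of cytokine receptors, missed the threshold (log2 fold change 3.38, adjusted p = 0.0624, limma). Of 12 T lineage transcription factors 11 were tested and none was called by limma, edgeR or DESeq2, 4 had an unadjusted p under 0.05 in limma, and the median was 0.44. Gata3, the most abundant of them and a factor of hair follicle keratinocytes as well, was at 669 ± 242 in control and 375 ± 20.9 in ILK-K5 libraries (adjusted p = 0.318, limma).

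Of 16 genes of DETCs and innate gamma-delta T cells 5 were tested and 3 were higher, and the median log2 fold change was 2.83. Klrk1, Cd69 and Cd7 reached the minimum for testing only through the ILK-K5 libraries, which fixed their direction, and the count and median describe the 5 alone. Itgae, the αE integrin chain that holds T cells to E-cadherin of keratinocytes and is also found on dendritic cells, stood at 10.6 ± 3.88 in control and 78.7 ± 8.43 normalized counts in ILK-K5 libraries (SD, n = 3, log2 fold change 2.83, adjusted p = 0.0147, limma). Klrk1, the activating receptor NKG2D of DETCs and NK cells, rose from 1.72 ± 1.82 to 30.0 ± 2.42 (log2 fold change 3.77, adjusted p = 0.0393, limma). Cd69, an early activation and residence marker, was at or below 3 reads in every control library. It was higher in ILK-K5 libraries (log2 fold change 4.59, 95% interval 2.73 to 6.46, adjusted p = 0.0165, limma). The cytokines Il17a, Il22 and Ifng were below the minimum for testing, and Il17f did not pass the test (log2 fold change -0.50, adjusted p = 0.888, limma). Leaving out 1 library at a time, the call of Itgae was lost without ILK-K5 library 1, 2 or 3 (adjusted p up to 0.124, limma), that of Klrk1 without these or control library 2 (up to 0.245, limma), and that of Cd69 without ILK-K5 library 2 or 3 (up to 0.161, limma). Without ILK-K5 library 1, Cd69 was below the minimum and was not tested. Klrk1 was also not called with a pseudocount of 0.1, without the filter on low counts or in edgeR, and Cd69 not with a pseudocount of 0.1.

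Genes of some other leukocytes were higher in ILK-K5 libraries beside Tcrg-C1. All 11 macrophage genes tested were higher in ILK-K5 libraries (C1qa, C1qb, C1qc, Csf1r, Adgre1, Cd68, Mrc1, Lyz2, Ctss, Cd14 and Fcgr3), and their median log2 fold change was 7.22. Their summed normalized counts were 102 to 151 in control and 13256 to 20219 in ILK-K5 libraries. All 7 genes of leukocytes in general were higher (Ptprc, Coro1a, Laptm5, Cd52, Cd53, Rac2 and Cd48), at 47.1 to 118 summed counts in control and 3141 to 4055 in ILK-K5 libraries, and their median was 5.77. C1qa, C1qb, C1qc, Mrc1, Cd14 and Fcgr3 reached the minimum for testing only through the ILK-K5 libraries, which fixed their direction. The same holds for Coro1a, Cd52, Cd53 and Cd48, and the counts and medians rest in part on these genes. With single libraries left out, C1qa and Coro1a kept the call in 3 of 6 fits and Rac2 in 1, and the other 15 genes kept it in all. Rac2 was also not called with a pseudocount of 0.1, with TMM factors or in edgeR, and Coro1a not with a pseudocount of 0.1. In ILK-K5 libraries the T cell sums were far lower, over fewer genes and with no correction for length. The 4 CD3 chains summed to 116 to 150 in control and 152 to 227 in ILK-K5 libraries, and the gamma constant genes to 9.12 to 29.0 against 94.1 to 118. The alpha-beta constant genes summed to 49.2 to 309 against 306 to 531. Trbc2 gave 257 of 306, 477 of 531 and 398 of 425 of this sum in ILK-K5 libraries 1 to 3, and Trac at most 3.09 in any library. Cd3d gave 118 of 150 and 97.3 of 134 of the CD3 sum in control libraries 1 and 2, so that this sum hides the differences of Cd3e and Cd3g.

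Of 9 genes of NK and cytotoxic cells 1 was tested, Nkg7, a protein of cytotoxic granules, which missed the threshold (log2 fold change 4.06, adjusted p = 0.0861, limma). DESeq2 called it and Klrd1, an NK cell receptor chain, higher. The list summed to 0 to 15.2 normalized counts in control and 56.9 to 121 in ILK-K5 libraries. Ncr1 and Gzma had at most 2 reads in any of the 6 libraries. Eomes had 2, 0 and 2 reads in control and 1, 0 and 1 in ILK-K5 libraries. Klrd1 had 1, 0 and 0 reads in control and 15, 13 and 10 in ILK-K5 libraries. Reads of Ctsw were 0, 0 and 4 against 9, 26 and 19, and those of Klrb1c 3, 0 and 5 against 11, 10 and 7. Of 6 B cell genes 2 were tested and none was called by limma, edgeR or DESeq2, 0 at an unadjusted p under 0.05 in limma, led by Cd22, and the sums overlapped (59.5 to 200 against 64.0 to 116). Langerhans and dendritic cell genes had 1 of 5 tested called higher, Itgax, and their sum was 82.1 to 107 in control and 967 to 1628 in ILK-K5 libraries. Itgax alone gave 1043, 770 and 767 of it in ILK-K5 libraries 1 to 3. Flt3 and Zbtb46 overlapped between genotypes. Cd207 and Xcr1 were not called (adjusted p = 0.148 and 0.0628, limma) except by DESeq2. Of 4 neutrophil genes tested 2, S100a8 and S100a9, were higher (in 2 and 5 of 6 fits with a library left out), and keratinocytes can make both. Of 6 mast cell genes only Kit was tested, and it was not called (adjusted p = 0.0578, limma) except by DESeq2, while Cpa3 and Tpsb2 were at 0 in all 6 libraries. Nkg7, Xcr1, S100a8, S100a9, Kit and Csf3r of the neutrophil list reached the minimum for testing only through the ILK-K5 libraries, which fixed their direction. Vav1, Lcp2, Cd4, Il7r and Itgae can be expressed by macrophages, dendritic or other cells, whose genes were higher in the same libraries, and the part of these cells in the result was not tested.

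**Figure D4:**
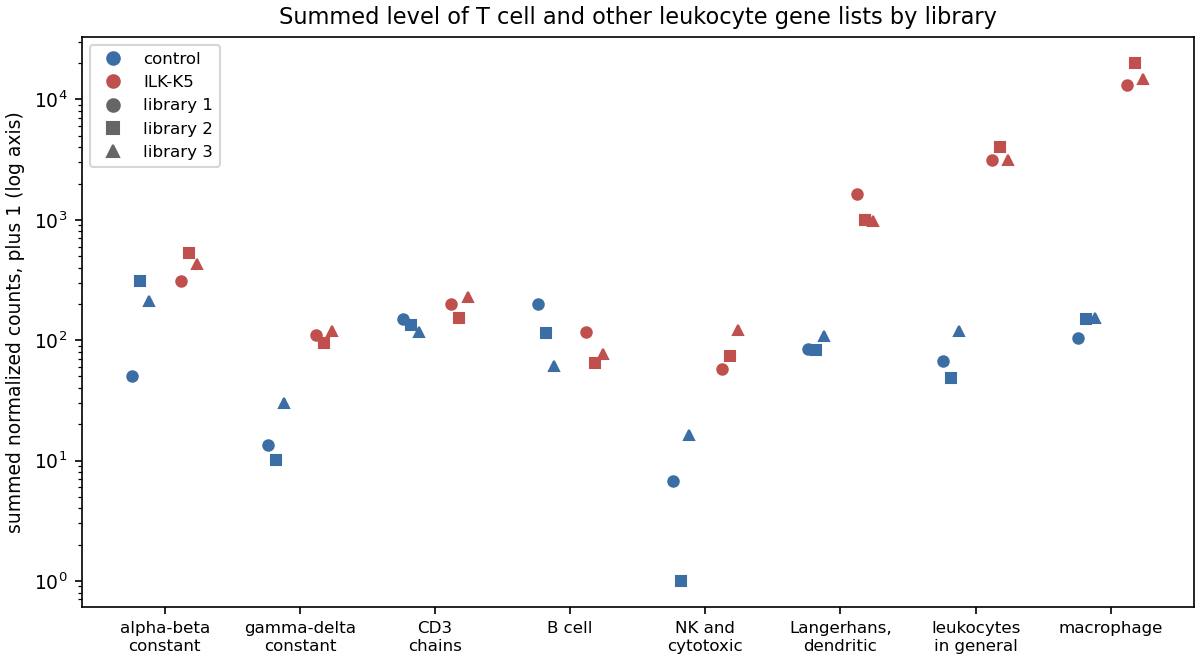
Summed normalized counts plus 1 (log axis) of gene lists for T cells and other leukocytes in each library, blue control and red ILK-K5. The macrophage sum lies between 13256 and 20219 in ILK-K5 libraries, the 4 CD3 chains between 152 and 227, and the B cell sums of the genotypes overlap.

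The genes whose log2 levels followed the summed T cell genes most closely over the 6 libraries were Anks3 (Pearson r = 0.998), Fndc10 (0.995), Ear2 (0.993), Stfa3 (0.993) and Gsta4 (0.993). Ear2, a ribonuclease of eosinophils and macrophages, had 2.89, 31.9 and 13.8 normalized counts in the controls and 184, 391 and 345 in the ILK-K5 libraries. With 6 points in 2 genotypes these values describe likeness only, and the points share the genotype split and the size factors. Trbc2 was the largest part of the sum in all libraries but control library 1.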

How the data were processed

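RNA isolated with TRIzol LS was amplified as cDNA (Ovation RNA-Seq System V2) and sequenced as read pairs after a Nextera XT preparation. Per the labels' processing notes, TopHat2 2.0.14, Bowtie2 2.2.4, Bowtie and DESeq2 1.6.3 were used with GRCm38. The program that counted reads is not given in the sources used here. The authors deposited normalized counts, a signal that equals reads divided by a size factor: all values (100%) were whole multiples within 0.001, and the reads were recovered. The deposited FPKM values are the authors' normalized counts scaled by gene length and gave the length behind each gene (equal to the exon length in GENCODE M21 for 72.5% of 33392 genes). Tables of the authors' own comparison, with fold changes and p-values, were not used. Symbols matched 42107 of 43274 genes (97.3%).

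Genotypes were compared with limma 3.58.1 (lmFit, eBayes with trend, two-sided) in R 4.3.3 on log2(normalized count + 1) for 16368 genes with a mean of at least 10, with Benjamini-Hochberg adjustment and calls at an adjusted p of at most 0.05. Fold changes of low genes are understated on this scale. Alternatives were pseudocounts of 0.1 and 5, no filter, a mean of at least 50, TMM factors, FPKM plus 0.1, edgeR 4.0.16 and DESeq2 1.42.0 on recovered reads, a replicate block, a term for the last 3 digits in the library names, and each library left out. Fits were tested on simulated data. Python 3.11.15 with pandas 2.3.3 was used for tables, and floors (3 reads per library) cover counting error only.

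The members and lists were chosen with earlier results of these data known. Named were all members, called genes of the lists, the other constant genes, the most abundant gene of each list, the 3 segments with most reads and the 5 genes most like the members; other list genes were named after their values were seen. A macrophage gene and a sequence are not reported here, and sums and counts leave that gene out.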

Additional observations from a re-analysis of the deposited data

How the results depend on the processing

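No direction of the 6 T cell genes tested reversed under the alternatives in which each was tested; the directions of Trac, Lck, Zap70 and Trbc1 were not followed through them. Counts of calls did change. Of all genes tested 577 were called, and 1034 under DESeq2, 1132 with the term for the last digits in the library names and 249 to 647 with 1 library left out. Of the T cell genes 1 was called, and 0 with a pseudocount of 0.1, 0 with a mean of at least 50 (2 tested), 0 in edgeR, 2 in DESeq2 (Cd3g and Tcrg-C1), 3 with the term for the last digits in the library names and 0 to 2 with 1 library left out. The ratio of Trbc2 to Tcrg-C1 in ILK-K5 libraries, 5.74, became 3.22 with the lengths implied by the deposited FPKM. The low counts, of 1 to 22 reads for Tcrg-C1 and Cd3g in control libraries, limit the precision of both. The cause of these differences was not tested.

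With a replicate block 1117 genes were called, 4 of them T cell genes (Cd3g, Cd3e, Trbc2 and Tcrg-C1). The deviations of same-numbered libraries from their genotype means correlated at 0.53, 0.02 and 0.31 over 16368 genes. Control libraries 2 and 3 correlated best with ILK-K5 libraries 3 and 2 (0.074 and 0.50). Such deviations sum to 0 within a genotype, so that positive and negative correlations come together and the negative ones add no separate observation. Control library 1 went against ILK-K5 libraries 2 and 3 (-0.45 and -0.32), and control library 3 against ILK-K5 library 1 (-0.55). Control library 2 stood at -0.060 with ILK-K5 library 1. The last 3 digits of the names also set library 1 apart, and a term for them raised the calls from 577 to 1132. The main fit holds no such term and treats the numbers as names only, so that it leaves out any deviation that these libraries share.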
